A study of Mus musculus with 4 samples.

Results

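The genes of the vacuolar ATPase, of the autophagy machinery and of their transcriptional regulators were examined in mouse peritoneal macrophages exposed to LUP or to vehicle. The 38 genes were chosen by symbol: 17 encode V-ATPase subunits or accessory proteins, 17 autophagy proteins, 3 the regulators Tfeb, Tfe3 and Mitf, and 1 the lysosomal channel Tpcn2. All 38 were found among the 55414 genes listed, and all 38 passed the filter on low counts, with 188 to 48719 reads per gene and library. Peritoneal macrophages received LUP (0.5 mg/ml, libraries LUP 1 and LUP 2) or vehicle (libraries vehicle 1 and vehicle 2) for 24 h, and their RNA was sequenced. The labels do not spell out LUP, do not say what the vehicle was, and give no strain, age or genotype. Nor do they say that the libraries within each group stem from different mice or cultures, so p-values measure the spread between these libraries, which may be technical.

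The V-ATPase is a rotary proton pump that acidifies endosomes, lysosomes and phagosomes. Its cytosolic V1 sector hydrolyses ATP and turns the rotor of the membrane-embedded V0 sector, which carries protons across. Autophagy delivers cytoplasm to the same lysosomes: a kinase and a lipid kinase complex start a membrane, ubiquitin-like conjugation attaches proteins of the ATG8 family (LC3 and GABARAP) to it, and receptors such as p62 tie cargo to them. TFEB, TFE3 and MITF, of the MiT/TFE family, are kept in the cytosol by mTORC1 at the lysosome and, once released, activate lysosomal and autophagy genes through an E-box element.

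The libraries held 19949818 to 23617618 counts. The macrophage gene Csf1r, the receptor of colony-stimulating factor 1, stood at 319 and 325 TPM with vehicle and 609 and 581 TPM with LUP. Gata6 and Timd4, markers of large resident peritoneal macrophages, were low in every library but were called in opposite directions. Gata6 was called lower, at 2.67 and 3.59 TPM with vehicle and 1.34 and 1.10 TPM with LUP. Timd4 was called higher, at 0 and 0.03 TPM with vehicle and 0.88 and 0.65 TPM with LUP. The Timd4 call rested on no more than 28 counts per library. The 12 macrophage markers summed to 27444 and 27074.5 TPM with vehicle and 21634 and 21828 TPM with LUP, with 7 called higher and 3 lower. The lysozyme gene Lyz2 carried most of that sum, at 22379 and 22088 TPM with vehicle and 15652 and 15999 TPM with LUP, and the other 11 markers summed in TPM to 5065 and 4986 with vehicle and 5982 and 5829.7 with LUP, in the opposite direction. Of the marker lists of other cells, those of B cells and mast cells summed to 2.34 to 6.25 TPM and 2.82 to 3.9 TPM over the 4 libraries, with overlapping groups. Kit, of the mast cell list, was called higher, on no more than 45 counts per library. It stood at 0.09 and 0.53 TPM with vehicle and 0.68 and 0.68 TPM with LUP. The T and NK cell list summed to 0.37 and 0.8 TPM with vehicle and 2.51 and 1.43 TPM with LUP. The dendritic cell list summed to 0.98 and 1.18 TPM with vehicle and 4.68 and 5.43 TPM with LUP, most of the latter Ccr7, which was called higher (0.430 and 0.480 TPM with vehicle and 3.89 and 4.43 TPM with LUP). The neutrophil list summed to 101 and 107 TPM with vehicle and 133 and 128 TPM with LUP, nearly all of it Csf3r, lower with LUP, and S100a8, higher with LUP, while Ly6g, S100a9 and Mpo were listed at 0 in every library. Mesothelial and fibroblast markers summed to 92.9 and 101 TPM with vehicle and 118 and 94.6 TPM with LUP, with Col1a1 and Dcn called higher (log2 changes 0.46 and 0.27) and Upk3b, Krt19 and Pdgfra lower (-2.21, -2.90 and -0.59). Upk3b reached no more than 0.98 TPM and 50 counts in a library, and Krt19 no more than 0.77 TPM and 12 counts. The part of such cells in the results was not tested, and in bulk RNA fewer cells of a type and less RNA per cell cannot be told apart.

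With LUP, 12 of the 38 genes were higher and 19 lower, and most changes were below 2-fold. Only Atp6v0d2 was called at a change of at least 2-fold in the main fit, against 11.3% of all genes tested. Over the 12 alternative settings its log2 change ran from -1.10 to -0.98 and that of Atp6v0a1 from -1.11 to -0.95. Which of the 2 genes passed 2-fold therefore depended on the setting. By edgeR's quasi-likelihood test at an adjusted p under 0.05, called below, 50.8% of the 13355 genes tested were called, 27.1% higher and 23.7% lower. Among the 5173 tested genes with a mean of at least 20 TPM, a level that most of the 38 reached, 69.5% were called, 42.4% higher and 27.1% lower. The largest changes were the falls of Atp6v0d2, Atp6v0a1 and Tfeb and the rise of Sqstm1. The median absolute log2 change of the 38 genes was 0.30, as over all genes tested (0.30).

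Levels are given per library as TPM, the length-normalised share of a gene among all transcripts, and changes as the log2 of LUP over vehicle fitted to the counts. The scales are offset from each other: the median log2 change of all genes shifted by -0.098 with limma on log2(TPM + 1), by -0.10 on log2(TPM + 0.1) and by -0.093 after quantile normalization. Higher genes made up 53.4% of all calls under TMM scaling, against 41.3% after quantile normalization. Of the 38 genes, 5 with small fitted changes had the other sign in TPM: Atp6v1d, Atp6v1f, Atp6ap1, Mitf and Gabarap. In TMM-scaled counts per library the groups did not overlap for 37 of the 38 genes, beside 74.7% of all genes tested. Shares without overlap, here and below, were taken over all genes tested and not among genes of like level.

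**Figure D1:**
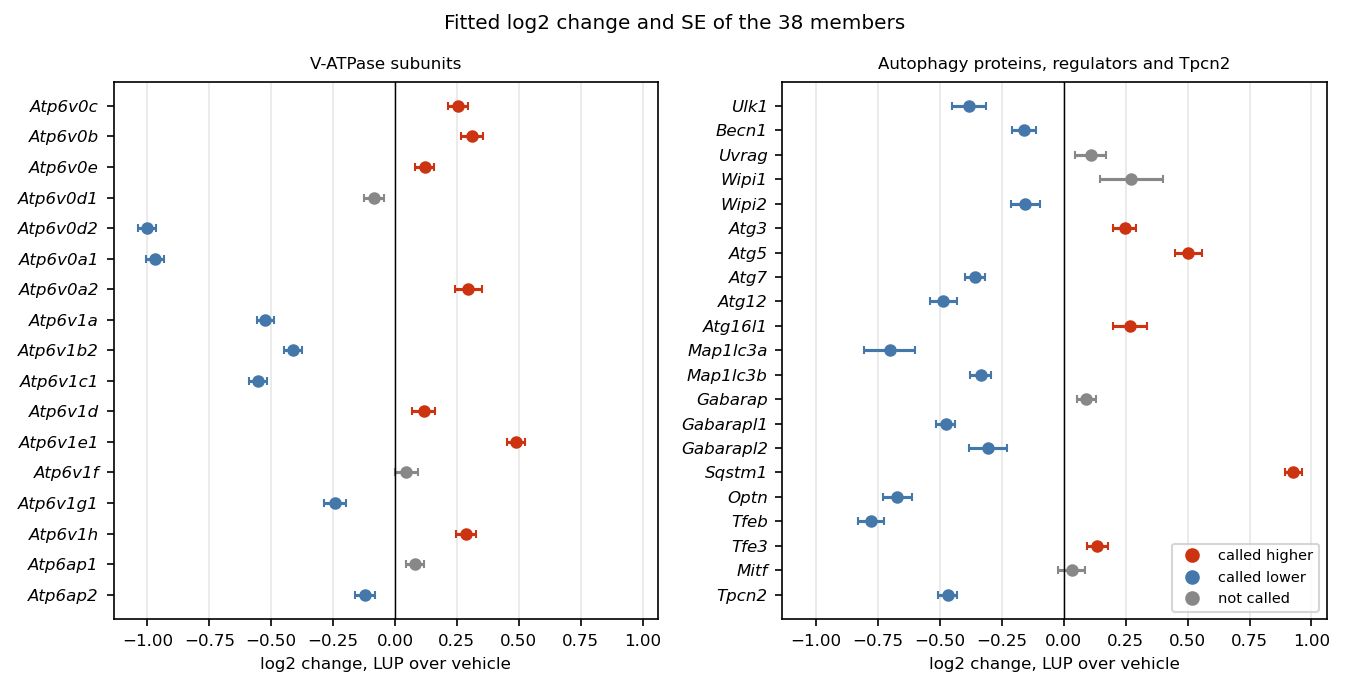
Fitted log2 change (LUP over vehicle, points) with its standard error (bars) for the 17 V-ATPase genes (left) and the 21 autophagy, regulator and channel genes (right), coloured by call at an adjusted p under 0.05. Atp6v0d2 and Atp6v0a1 lie near -1 and Sqstm1 near 0.93, with most others between -0.70 and 0.50.

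Of the 3 regulators, Tfeb fell, Tfe3 was called slightly higher and Mitf was not called. Tfeb, the family member best known as the driver of lysosome biogenesis, stood at 79.5 and 77.7 TPM with vehicle and 46.3 and 40.7 TPM with LUP, a 1.72-fold fall (log2 change -0.78, SE 0.051, edgeR adjusted p = 2.06e-10). Both LUP libraries lay well below both vehicle libraries. Tfe3, which binds the same element, stood at 69.5 and 67.7 TPM with vehicle and 72.5 and 69.4 TPM with LUP with a log2 change of 0.13 (edgeR adjusted p = 0.013). Its TPM overlapped between the groups, and the call was lost under 6 of the 12 alternative settings, among them without vehicle replicate 2 (0.10). Mitf, known as the regulator of pigment cells and osteoclasts, stood at 20.9 and 21.6 TPM with vehicle and 19.5 and 19.1 TPM with LUP. Its fitted log2 change was 0.031 (edgeR adjusted p = 0.671), and it was -0.13 on log2(TPM + 1), so its direction depended on the scale.

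The balance within the family differed accordingly. The TPM ratio of Tfe3 to Tfeb was 0.874 and 0.871 with vehicle and 1.57 and 1.71 with LUP, so Tfeb was the more abundant transcript in both vehicle libraries and Tfe3 in both LUP libraries. The ratio of Mitf to Tfeb was 0.263 and 0.278 with vehicle and 0.422 and 0.470 with LUP. With 2 libraries against 2 an exact two-sided permutation test cannot give a p below 0.333, and both ratios had that value (0.333 after adjustment over the 7 ratios compared). Tfec, the remaining family member, which is largely confined to macrophage lineages, was chosen after its values were seen: it rose from 8.46 and 6.91 to 24.3 and 24.2 TPM (log2 change 1.74, SE 0.11, edgeR adjusted p = 9.99e-11).

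Promoter windows were read for the 28 of the 38 genes that the RefSeq promoter table (build GRCm38.p6) held, in 35 windows from 250 bases before to 50 bases from the annotated start on. The E-box core CACGTG, which reads alike on both strands, was searched, and with it TCACGTG on either strand, the longer form that lies within the element bound by TFEB and TFE3 and that always contains the core. Of the 28 genes, 7 (25.0%) held the core and 6 (21.4%) the longer form. The shares were 8.09% and 4.29% of the 27025 genes of the whole table and 11.8% and 7.04% of the 9953 tested genes with a window. By group, 4 of 11 V-ATPase genes and 3 of 13 autophagy genes held the core, and none of the 8 windows of Tfeb, Tfe3 and Mitf or the window of Tpcn2 did. No windows were read for Atp6v0a2, Atp6v0d2, Atp6v1b2, Atp6v1c1, Atp6v1g1, Atp6v1h, Map1lc3a, Becn1, Atg12 and Atg16l1.

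The 9 sites in these 7 genes are shown because they hold the E-box core, and all but that of Atg5 hold the longer form. Each has 10 bases on either side of the core, on the gene's strand, with the core and an adjoining T or A of the longer form in capitals.
Atg3 (chr16:45158725-45158750, plus strand): ctccttttgTCACGTGtcctgggaga
Atg3 (chr16:45158748-45158773, plus strand): agagtcgagTCACGTGAggccttagg
Atg5 (chr10:44268315-44268340, plus strand): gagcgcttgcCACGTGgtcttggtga
Atg7 (chr6:114670954-114670979, plus strand): tattggtggTCACGTGtgcagtaagt
Atp6v0b (chr4:117887350-117887375, minus strand): gcgcgggggTCACGTGgggtcggcgc
Atp6v0b (chr4:117887332-117887357, minus strand): gtcggcgcaTCACGTGcgccggtcag
Atp6v0d1 (chr8:105566052-105566077, minus strand): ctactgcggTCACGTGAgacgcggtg
Atp6v0e (chr17:26676389-26676414, plus strand): gcgcgccgaTCACGTGAgcctctgtt
Atp6v1a (chr16:44139375-44139400, minus strand): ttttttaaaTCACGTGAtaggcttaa

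The sites lay from 132 bases before the start (Atg7) to 3 bases after it (Atp6v0e), and Atg3 and Atp6v0b each held 2. Changes of these 7 genes went both ways: 4 were called higher (Atg3, Atg5, Atp6v0b and Atp6v0e), 2 lower (Atg7 and Atp6v1a) and 1, Atp6v0d1, was not called. A match is a description of the letters in the window and not of a bound site. The whole windows of the 3 genes with the largest absolute log2 change among the 7 are given for context, with the same letters in capitals.
Atp6v1a (chr16:44139210-44139509, minus strand): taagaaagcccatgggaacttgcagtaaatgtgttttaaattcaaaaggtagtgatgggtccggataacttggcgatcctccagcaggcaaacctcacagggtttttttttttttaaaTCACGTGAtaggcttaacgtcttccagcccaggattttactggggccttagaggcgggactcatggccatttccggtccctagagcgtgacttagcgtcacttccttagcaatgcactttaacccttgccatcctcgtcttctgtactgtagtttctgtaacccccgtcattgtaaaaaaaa
Atg5 (chr10:44268089-44268388, plus strand): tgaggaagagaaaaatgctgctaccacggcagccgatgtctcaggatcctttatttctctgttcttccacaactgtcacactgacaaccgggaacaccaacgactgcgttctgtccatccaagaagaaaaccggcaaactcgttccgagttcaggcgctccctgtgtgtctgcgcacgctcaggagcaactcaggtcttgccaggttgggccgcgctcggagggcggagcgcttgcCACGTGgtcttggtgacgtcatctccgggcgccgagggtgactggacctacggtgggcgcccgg
Atg7 (chr6:114670846-114671145, plus strand): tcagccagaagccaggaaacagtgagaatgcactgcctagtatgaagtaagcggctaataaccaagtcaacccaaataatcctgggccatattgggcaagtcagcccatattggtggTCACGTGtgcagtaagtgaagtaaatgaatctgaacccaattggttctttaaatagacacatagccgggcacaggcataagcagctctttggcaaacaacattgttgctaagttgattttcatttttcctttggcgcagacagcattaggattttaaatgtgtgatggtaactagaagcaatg

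Among the 17 V-ATPase genes, 7 were called higher and 7 lower, and 3 were not called (5 higher and 9 lower after quantile normalization, 4 higher and 8 lower with limma on log2(TPM + 1)). The shares over all genes tested were 27.1% higher and 23.7% lower. Among tested genes with a mean of at least 20 TPM, nearer the level of these genes, they were 42.4% and 27.1%. By sector, in V0 4 were higher and 2 lower of 7, in V1 3 were higher and 4 lower of 8, and of the accessory genes 1 of 2 was lower. Their median log2 change was 0.046, beside -0.0011 over all genes tested. In TPM, the groups did not overlap in 16 of the 17, 5 with LUP above and 11 with LUP below, while 69.9% of all genes tested had no overlap.

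**Figure D2:**
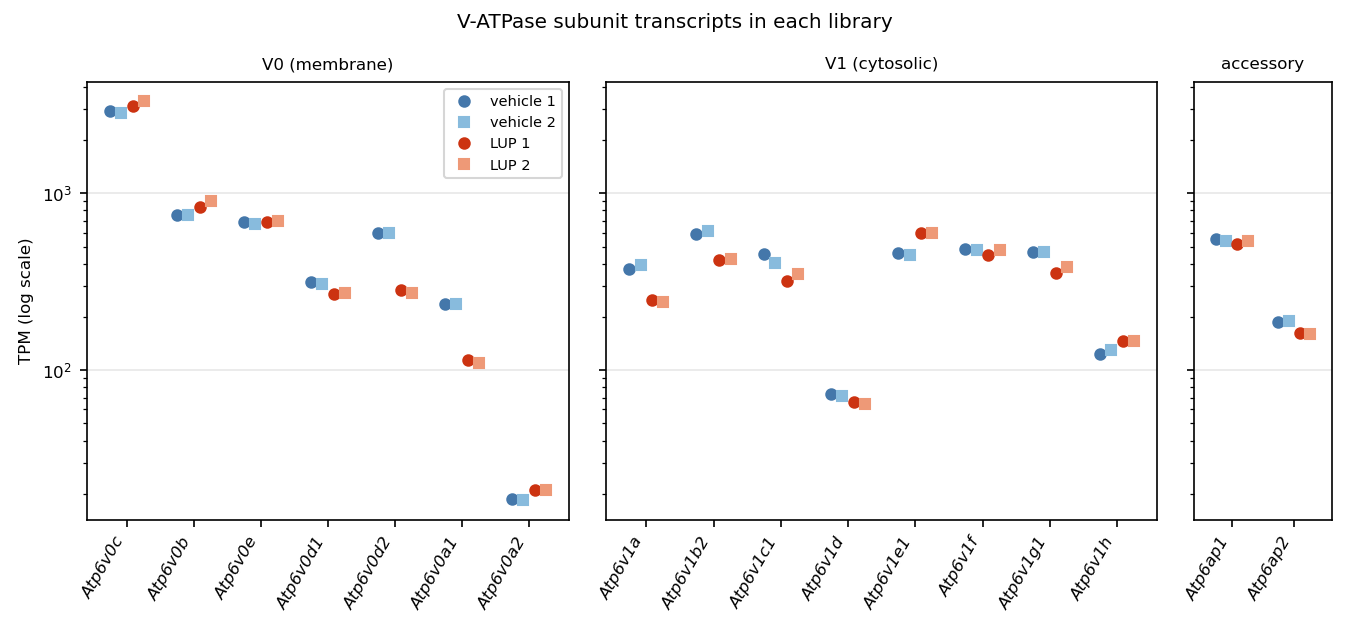
TPM (log scale) of the 17 V-ATPase genes in each of the 4 libraries, with vehicle in blue and LUP in red, and circles and squares for libraries 1 and 2. The LUP points of Atp6v0d2 and Atp6v0a1 lie well below the vehicle points, and those of Atp6v1e1 lie above them.

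The largest falls in the pump were those of 2 V0 genes, Atp6v0d2 and Atp6v0a1. Atp6v0d2, the d2 form of the subunit that joins the rotor to the V1 stalk and known for its high level in osteoclasts and some macrophages, stood at 599 and 598 TPM with vehicle and 283 and 274 TPM with LUP. It fell 2.00-fold (log2 change -1.0, SE 0.036, edgeR adjusted p = 1.85e-14). Its widespread paralog Atp6v0d1 stood at 314 and 309 TPM with vehicle and 270.3 and 275 TPM with LUP. In TPM the LUP libraries of Atp6v0d1 were lower, but its fitted log2 change of -0.085 was not called (edgeR adjusted p = 0.0907), while it was called lower under 5 of the 12 alternatives, among them without LUP replicate 2 (-0.12). The TPM ratio of d2 to d1 was 1.91 and 1.94 with vehicle and 1.05 and 0.998 with LUP, so d2 was the more abundant form with vehicle and the forms were nearly level with LUP.

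Atp6v0a1, a form of the large a subunit through which protons pass and which directs the pump to its membrane, stood at 236 and 237 TPM with vehicle and 114 and 110.3 TPM with LUP. It fell 1.96-fold (log2 change -0.97, SE 0.037, edgeR adjusted p = 5.11e-14). Atp6v0a2, a paralog known from the Golgi and endosomes, was far less abundant, at 18.6 and 18.5 TPM with vehicle and 21.1 and 20.9 TPM with LUP, and was higher (log2 change 0.30, SE 0.054, edgeR adjusted p = 0.000156). That call was lost with limma on log2(TPM + 1) and on log2(TPM + 0.1), with log2 changes of 0.17 and 0.18. The TPM ratio of a1 to a2 was 12.7 and 12.8 with vehicle and 5.43 and 5.28 with LUP, a difference of -1.25 in log2. Tcirg1, which encodes the a3 form of lysosomes and osteoclasts, was chosen after its values were seen and was the most abundant: it made up 80.3% and 79.9% with vehicle and 87.5% and 87.7% with LUP of the summed a-subunit TPM. Its level was 1037 and 1013 TPM with vehicle and 949.7 and 938 TPM with LUP, and its fitted log2 change of 0.011 was not called (edgeR adjusted p = 0.815) and was -0.12 on log2(TPM + 1). Atp6v0a1 made up 18.3% and 18.7% with vehicle and 10.5% and 10.3% with LUP of that sum.

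**Figure D3:**
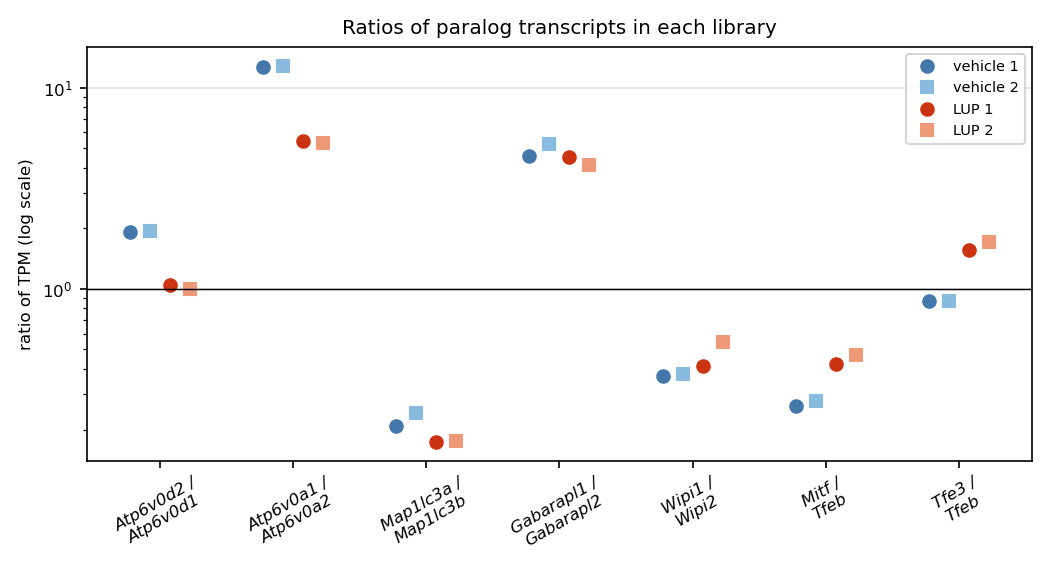
Ratio of TPM (log scale) of 7 pairs of related genes in each library, with vehicle in blue and LUP in red, and circles and squares for libraries 1 and 2; the line marks equal levels. The ratio of Tfe3 to Tfeb crossed from 0.87 to 1.57 or more, and that of Atp6v0a1 to Atp6v0a2 dropped from 12.7 or more to 5.43 or less.

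The small proton-binding ring subunits of V0 rose a little. Atp6v0c, the c proteolipid that makes up most of the ring, was the most abundant of the 38 transcripts, at 2914 and 2856 TPM with vehicle and 3112 and 3306 TPM with LUP. It rose 1.19-fold (log2 change 0.25, SE 0.041, edgeR adjusted p = 3.42e-05). Atp6v0b, the c'' proteolipid, stood at 757 and 751 TPM with vehicle and 836 and 899 TPM with LUP and rose 1.24-fold (edgeR adjusted p = 6.97e-06). For both, the LUP libraries lay above the vehicle libraries, and the call held under all 12 alternatives. Atp6v0e, the small e subunit, stood at 686 and 674 TPM with vehicle and 685 and 694 TPM with LUP; its call of 0.12 in log2 (edgeR adjusted p = 0.0174) was lost under 6 of 12 alternatives, among them without LUP replicate 2 (0.094) or vehicle replicate 2 (0.090), and its TPM overlapped.

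The 7 V0 genes moved both ways, and their sum, which leaves out Tcirg1, overlapped between the groups. They summed to 5524 and 5444 with vehicle and 5322 and 5578 with LUP in TPM, with an exact two-sided permutation p of 1. With Tcirg1, a sum chosen after the values were seen, they summed in TPM to 6561 and 6457 with vehicle and 6272 and 6516 with LUP. The log2 difference of the sum of 7 was -0.0093, and it took the other sign without LUP replicate 1 (0.025) or vehicle replicate 1 (0.0013). Atp6v0c made up 52.8% and 52.5% with vehicle and 58.5% and 59.3% with LUP of that sum of 7. In a sum chosen after the values were seen, without Atp6v0c, the other V0 genes summed to 2609.7 and 2587 with vehicle and 2210.0 and 2272 with LUP, and the 8 V1 genes to 3025 and 3010.2 with vehicle and 2597 and 2677 with LUP, with both LUP libraries below both vehicle libraries in each (p = 0.333 in each exact test, the smallest that 2 against 2 can give).

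In the V1 sector, the catalytic core fell. Atp6v1a, the A subunit that holds the catalytic sites for ATP, stood at 371 and 393 TPM with vehicle and 248 and 244 TPM with LUP, a 1.44-fold fall (log2 change -0.52, SE 0.036, edgeR adjusted p = 4.05e-10). Atp6v1b2, its partner B subunit in the headpiece, stood at 591 and 615 TPM with vehicle and 419 and 423 TPM with LUP and fell 1.33-fold (edgeR adjusted p = 1.29e-08). The LUP libraries of both genes were close together and below the vehicle libraries. Atp6v1c1, the C subunit that clamps the stator stalks when the sectors join, stood at 451 and 406 TPM with vehicle and 317 and 348 TPM with LUP and fell 1.47-fold by counts (log2 change -0.55, SE 0.036, edgeR adjusted p = 2e-10). Its fall was smaller in TPM, at -0.36 on log2(TPM + 1), where the length assigned to its transcripts also differed between libraries.

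The stalk subunits went both ways. Atp6v1e1, the E subunit of the peripheral stalks, stood at 462 and 450.1 TPM with vehicle and 598 and 593 TPM with LUP and showed the largest rise of the pump, 1.40-fold (log2 change 0.49, SE 0.038, edgeR adjusted p = 2.54e-09). Atp6v1g1, the G subunit that pairs with E in those stalks, stood at 468 and 467 TPM with vehicle and 356 and 381 TPM with LUP and fell 1.18-fold (edgeR adjusted p = 0.00018). So the partners of 1 stalk moved in opposite directions, and both calls held under all 12 alternatives. Atp6v1h, the H subunit that silences free V1, stood at 123 and 130.3 TPM with vehicle and 146 and 147 TPM with LUP and rose 1.22-fold (edgeR adjusted p = 1.12e-05), also under all 12.

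The central rotor genes were near the shift between scales. Atp6v1d, the rotor shaft, stood at 73.4 and 71.9 TPM with vehicle and 65.8 and 64.2 TPM with LUP, lower with LUP in TPM, yet was called higher by counts with a log2 change of 0.12 (edgeR adjusted p = 0.0424). Of the 12 alternatives, 3 reversed the sign and 6 more lost the call, among them those without LUP replicate 2 (0.0999) or vehicle replicate 2 (0.058), so no direction is given for it. Atp6v1f, the F subunit of the rotor, stood at 486 and 478 TPM with vehicle and 447 and 477 TPM with LUP with a log2 change of 0.046 that was not called (edgeR adjusted p = 0.442).

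The accessory genes had small changes. Atp6ap1, a luminal chaperone of pump assembly, stood at 549 and 539 TPM with vehicle and 519 and 535 TPM with LUP and was not called (log2 change 0.081, edgeR adjusted p = 0.0788), but was called lower after quantile normalization (-0.16) and higher without LUP replicate 1 (0.12). Atp6ap2, the prorenin receptor and a partner of V0, stood at 186 and 190.0 TPM with vehicle and 162 and 159.5 TPM with LUP and was called lower (log2 change -0.12, SE 0.039, edgeR adjusted p = 0.0133), a call lost under 4 of 12 alternatives, among them without LUP replicate 1 (-0.095), vehicle replicate 1 (-0.12) or vehicle replicate 2 (-0.13). Tpcn2, a two-pore cation channel of lysosomes and not a pump subunit, stood at 169.7 and 172 TPM with vehicle and 112 and 108 TPM with LUP and fell 1.38-fold (log2 change -0.47, SE 0.04, edgeR adjusted p = 7.93e-09), with no overlap between the groups.

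Among the 17 autophagy genes, 4 were called higher, 10 lower and 3 were not called (3 higher and 10 lower after quantile normalization, 2 higher and 8 lower with limma on log2(TPM + 1)). Over all genes tested, 27.1% were called higher and 23.7% lower, and among those with a mean of at least 20 TPM 42.4% and 27.1%. The median log2 change of the 17 was -0.16. TPM did not overlap between the groups in 13 of the 17, 4 with LUP above and 9 with LUP below, near the 69.9% of all genes tested that had no overlap.

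**Figure D4:**
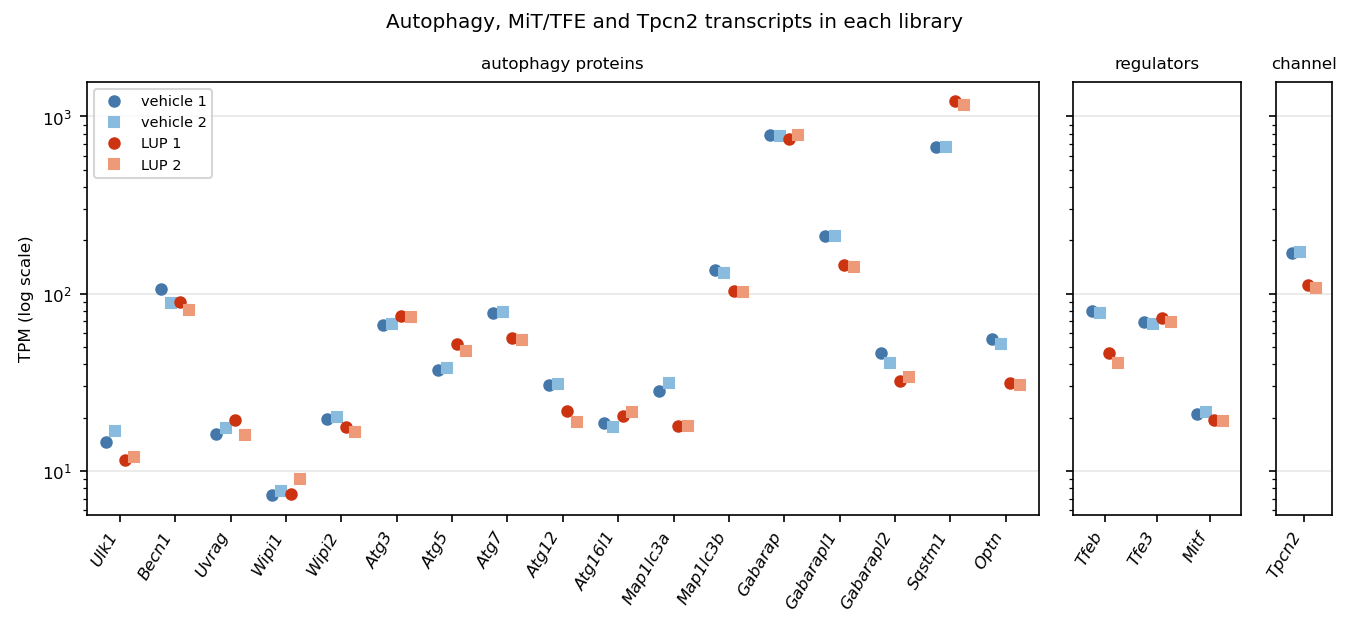
TPM (log scale) of the 17 autophagy genes, the 3 regulators and Tpcn2 in each library, with vehicle in blue and LUP in red, and circles and squares for libraries 1 and 2. Sqstm1 lies near 670 TPM in both vehicle libraries and above 1160 TPM in both LUP libraries, and Tfeb, Optn and Tpcn2 lie lower with LUP.

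The cargo receptors moved in opposite directions. Sqstm1 encodes p62, a receptor for ubiquitinated cargo that is itself degraded by autophagy and whose gene is a known target of the oxidative-stress factor NRF2. It stood at 669.8 and 670.1 TPM with vehicle and 1219 and 1168 TPM with LUP and rose 1.90-fold (log2 change 0.93, SE 0.035, edgeR adjusted p = 4.24e-14). Optn encodes optineurin, a receptor for damaged mitochondria and bacteria, and stood at 55.5 and 52.0 TPM with vehicle and 31.4 and 30.7 TPM with LUP. It fell 1.59-fold (log2 change -0.67, SE 0.058, edgeR adjusted p = 1.03e-08). Neither gene had whole-number counts in every library, so the authors' estimate placed a part of their reads. Both calls held under all 12 alternatives.

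The ATG8 family was called lower in 4 of 5 cases, beside 23.7% of all genes tested and 27.1% of those with a mean of at least 20 TPM. Map1lc3b, the LC3 form most used to mark autophagosomes, stood at 135 and 130.5 TPM with vehicle and 103 and 103 TPM with LUP and fell 1.26-fold (edgeR adjusted p = 2.84e-06). Map1lc3a, its paralog, stood at 28.2 and 31.5 TPM with vehicle and 17.9 and 18.0 TPM with LUP and fell 1.63-fold (log2 change -0.70, SE 0.1, edgeR adjusted p = 1.22e-05). The ratio of the LC3 forms, a to b, was 0.208 and 0.242 with vehicle and 0.174 and 0.175 with LUP.

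In the GABARAP branch, which acts later in autophagosome closure and fusion, Gabarapl1 stood at 211 and 211 TPM with vehicle and 146 and 141 TPM with LUP and fell 1.39-fold (log2 change -0.48, SE 0.04, edgeR adjusted p = 6.61e-09). Gabarapl2 (GATE-16) stood at 46.5 and 40.5 TPM with vehicle and 32.1 and 34.1 TPM with LUP and was called lower (log2 change -0.30, edgeR adjusted p = 0.00277), and without vehicle replicate 1 it was not (-0.19). Gabarap itself, the most abundant of the family, stood at 789 and 779 TPM with vehicle and 749 and 785 TPM with LUP, with groups that overlapped and a log2 change of 0.091 that was not called (edgeR adjusted p = 0.0576) and that was -0.032 on log2(TPM + 1). Without LUP replicate 1 Gabarap was called higher (0.13). The 5 genes summed to 1210.5 and 1193 with vehicle and 1048 and 1081 with LUP in TPM, lower in both LUP libraries (exact p = 0.333), and Gabarap made up 65.2% and 65.3% with vehicle and 71.5% and 72.6% with LUP of the sum.

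The conjugation machinery split, with 3 of 5 genes called higher and 2 lower, beside 27.1% higher and 23.7% lower over all genes tested. Of tested genes with a mean of at least 20 TPM, 42.4% were higher and 27.1% lower. Atg5, which is joined to Atg12 in the ligase that lipidates LC3, stood at 37.4 and 38.4 TPM with vehicle and 52.4 and 47.6 TPM with LUP and rose 1.42-fold (log2 change 0.50, SE 0.056, edgeR adjusted p = 3.91e-07). Atg12, its conjugation partner, stood at 30.5 and 30.9 TPM with vehicle and 21.8 and 18.8 TPM with LUP and fell 1.40-fold (log2 change -0.49, SE 0.056, edgeR adjusted p = 5.56e-07). For both partners the groups did not overlap and the calls held under all 12 alternatives. Atg16l1, the third part of that ligase, stood at 18.7 and 17.6 TPM with vehicle and 20.3 and 21.6 TPM with LUP, a log2 change of 0.27 (edgeR adjusted p = 0.00285) whose call was lost under 4 of 12.

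The conjugating enzymes went both ways as well. Atg7, the E1-like enzyme that starts both conjugation reactions, stood at 77.4 and 79.2 TPM with vehicle and 56.6 and 54.5 TPM with LUP and fell 1.28-fold (log2 change -0.36, SE 0.042, edgeR adjusted p = 6.98e-07). Atg3, the E2-like enzyme that hands LC3 to the lipid, stood at 67.0 and 67.9 TPM with vehicle and 74.9 and 74.2 TPM with LUP and rose 1.19-fold (edgeR adjusted p = 0.000245), a call lost in both TPM fits (0.14 on log2(TPM + 1)). Among the sites shown above, those of Atg3, Atg5 and Atg7 hold the E-box core in genes that were called in both directions.

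Among the genes of initiation and nucleation, 3 of 5 were called lower and none higher, beside 23.7% lower and 27.1% higher over all genes tested. Ulk1, the kinase that starts autophagy when mTORC1 is inactive, stood at 14.6 and 16.9 TPM with vehicle and 11.6 and 12.0 TPM with LUP and fell 1.30-fold (log2 change -0.38, SE 0.068, edgeR adjusted p = 0.000112), under all 12 alternatives. Becn1, the beclin subunit of the lipid kinase complex, stood at 106 and 88.1 TPM with vehicle and 89.8 and 81.1 TPM with LUP and was called lower (log2 change -0.16, edgeR adjusted p = 0.00859). Its TPM overlapped between the groups, and the call was lost under 4 of 12 alternatives, among them without vehicle replicate 1 (-0.13). Uvrag, the partner of beclin in a later form of that complex, stood at 16.3 and 17.5 TPM with vehicle and 19.5 and 16.0 TPM with LUP and was not called (log2 change 0.11, edgeR adjusted p = 0.156), though it was called higher without LUP replicate 2 (0.18).

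The WIPI proteins read the lipid that this complex makes. Wipi2, which recruits ATG16L1 to it, stood at 19.7 and 20.3 TPM with vehicle and 17.8 and 16.7 TPM with LUP and was called lower (log2 change -0.16, edgeR adjusted p = 0.0323), a call lost under 8 of 12 alternatives, among them without LUP replicate 1 (-0.11), vehicle replicate 1 (-0.14) or vehicle replicate 2 (-0.17). Wipi1, the least abundant of the 38 genes, stood at 7.31 and 7.71 TPM with vehicle and 7.38 and 9.07 TPM with LUP and was not called (log2 change 0.27, edgeR adjusted p = 0.0795). Without LUP replicate 1 its change was 0.42 and was called. The TPM ratio of Wipi1 to Wipi2 was 0.371 and 0.380 with vehicle and 0.416 and 0.544 with LUP.

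**Figure D5:**
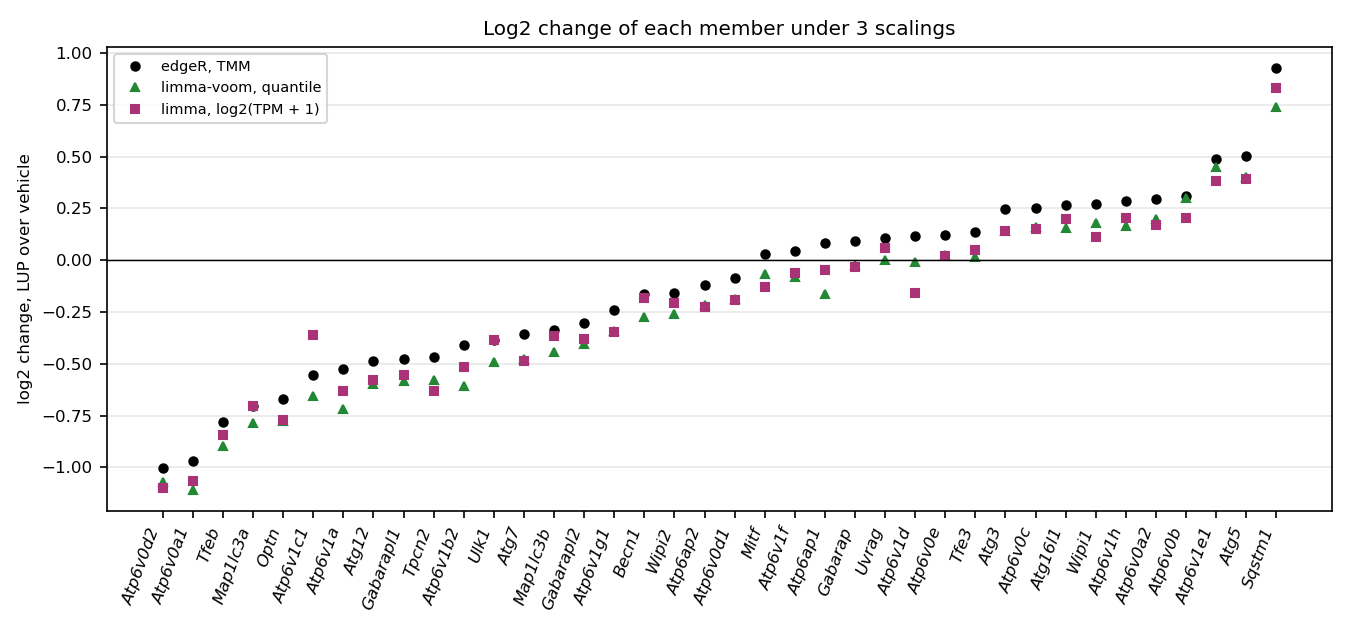
Log2 change (LUP over vehicle) of each of the 38 genes, ordered by the edgeR value, with TMM scaling (black), after quantile normalization (green) and on log2(TPM + 1) (purple). Most points of the other scalings lie about 0.1 below the black ones, and genes near 0 such as Mitf, Atp6v1f and Gabarap change sign.

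Other genes of the pathway, taken from 7 further lists, were counted in the same test: of 99, 91 were tested, 17 were called higher (9 with limma on log2(TPM + 1)) and 43 lower, with a median log2 change of -0.13. Over all genes tested, 50.8% were called, 27.1% higher and 23.7% lower, and the counts by list are descriptions beside these shares. The shares were 42.4% higher and 27.1% lower among tested genes with a mean of at least 20 TPM. Counts by list were 1 higher and 5 lower of 11 tested for other V-ATPase subunits and assembly factors, 2 and 8 of 19 for initiation and nucleation, and 2 and 3 of 7 for conjugation and the Atg4 proteases. They were 1 and 8 of 10 for receptors, 3 and 4 of 13 for autophagosome fusion, 5 and 11 of 21 for the control of TFEB at the lysosome, and 3 and 4 of 10 for lysosomal ion channels and transporters.

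Genes that act with the pump fell in most called cases. Wdr7 and Dmxl2, parts of the complex that helps V1 rejoin V0, had log2 changes of -0.40 and -0.15 (edgeR adjusted p = 5.4e-07 and 0.0144), Oxr1, of a family that binds the pump, -0.30, and the assembly factor Tmem199 0.33. All 4 were called, though Tmem199 was not under 3 of 12 alternatives and Dmxl2 under 4. Of the 10 ion channel and transporter genes tested, 3 were called at a change of at least 2-fold (Mcoln2, Mcoln3 and Tpcn1), beside 11.3% of all genes tested. The cation channel gene Mcoln2 rose from 30.5 and 32.9 to 80.9 and 80.7 TPM (log2 change 1.65, SE 0.055, edgeR adjusted p = 6.14e-15), Mcoln3 fell from 37.0 and 41.0 to 13.8 and 14.8 TPM (log2 change -1.33, SE 0.064, edgeR adjusted p = 2e-12), and Mcoln1, the lysosomal calcium channel that activates TFEB, was called lower by counts (log2 change -0.17, SE 0.045, edgeR adjusted p = 0.00375). In TPM Mcoln1 stood at 280.4 and 302 TPM with vehicle and 168 and 264 TPM with LUP, and its call was lost in both TPM fits. Clcn7, the chloride-proton exchanger that balances the pump's charge, rose from 211 and 213 to 337 and 317 TPM (log2 change 0.71, SE 0.035, edgeR adjusted p = 3.19e-12), while the potassium and proton channel gene Tmem175 fell (log2 change -0.44) and the exchanger gene Clcn5 was higher (0.26), a call lost in both TPM fits. Tpcn1, the paralog of Tpcn2 and chosen after its values were seen, fell from 30.1 and 32.2 to 13.5 and 13.0 TPM (log2 change -1.13, SE 0.055, edgeR adjusted p = 2.26e-12).

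At the lysosomal surface, where Rag GTPases and the Ragulator complex bring mTORC1 to TFEB, Lamtor1, Lamtor3 and Rragc were lower (-0.30, -0.18 and -0.26 in log2), and Lamtor2 and Lamtor5 higher (0.29 and 0.24). These are among the called genes of that list with the highest mean TPM. Other called genes of the list, in both directions, are not named. Rragd, the paralog of Rragc and itself a known TFEB target, was chosen after its values were seen: it fell from 17.1 and 17.5 to 7.40 and 6.63 TPM (log2 change -1.23, SE 0.066, edgeR adjusted p = 9.11e-12). Among autophagy factors, Tecpr1, a tethering protein of autophagosomes and lysosomes, fell from 177 and 178 to 69.7 and 67.7 TPM (log2 change -1.22, SE 0.039, edgeR adjusted p = 3.37e-15), and the mitophagy receptor gene Bnip3l fell by 0.65 in log2 (edgeR adjusted p = 3.84e-11). Atg9a, the membrane-carrying lipid scramblase, and Vmp1, another scramblase, were higher (log2 changes 0.56 and 0.39), as were Atg4a, a protease that matures ATG8 proteins (0.59), and Tbk1, the kinase that phosphorylates optineurin and p62 (0.63). Of the fusion genes, Vamp8 and Ykt6, membrane-fusion proteins, were higher (0.34 and 0.30), and Plekhm1, the adaptor between Rab7 and the tethering complex, was lower (-0.57).

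The naming rule also gave the following genes. Atg13 of the ULK complex, Pik3r4 of the lipid kinase complex and the WIPI-related Wdr45 were called lower (log2 changes -0.23, -0.22 and -0.47), as were the protease gene Atg4c (-0.49), Atg16l2 (-0.52) and the receptor genes Ncoa4 and Tax1bp1 (-0.22 and -0.16). Atg4d (0.31) and Ywhaz (0.15), a 14-3-3 protein gene, were called higher. Atg4d lost its call under 4 of 12 alternatives (0.040 on log2(TPM + 1)) and Ywhaz under 3 (0.028 on the same scale). The TPM of both genes overlapped between the groups. Of the genes for the tethering complex, Vps16 was called higher (0.18) and Vps18 lower (-0.15), and Vps39 was lower by counts (-0.45) and 0.24 on log2(TPM + 1). Of the 40 genes named from these lists, 25 kept their direction and call under all 12 alternatives. The calls of Atg9a, Ykt6, Atg16l2, Pik3r4 and Lamtor5 were among those lost in both TPM fits. Leaving out vehicle replicate 2 ended the calls of Dmxl2 (-0.085), Tax1bp1 (-0.13), Lamtor5 (0.17), Ywhaz (0.14) and Vps16 (0.14), leaving out LUP replicate 2 also that of Vps16 (0.10), and leaving out vehicle replicate 1 that of Mcoln1 (-0.14).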

How the data were processed

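RNA sequencing of 4 libraries, 2 per group, was analysed from 1 table of the whole series. Its expected counts per gene and its TPM values were estimated and deposited by the authors; the tools HISAT2, RSEM, StringTie and fastp are listed, per the submitters' processing notes, without versions or roles. The genome build was not given in the sources used. Per the labels' protocols, TruSeq libraries from total RNA were read as pairs; whether strand was kept is not stated. Groups were taken from the labels' treatment.

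Expected counts were rounded and tested with edgeR 4.0.16 (R 4.3.3; quasi-likelihood test, TMM, default filter, treatment only), with Benjamini-Hochberg adjustment over the 13355 genes tested. The table gave counts beside the TPM that the labels name, so the count test was used. Alternatives used DESeq2 1.42.0 and limma 3.58.1. The members and lists were chosen with earlier results of these data known. All members are named; from other lists, the up to 3 called genes per direction with the highest mean TPM were named, and Tcirg1, Tfec, Rragd and Tpcn1 after their values were seen. The sum of V0 without Atp6v0c and the background at 20 TPM were also added then.

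Both pairs of like-treated libraries varied beyond sampling noise (chi-square per degree of freedom 2.67 with vehicle and 3.50 with LUP). Counts were whole (within 0.001) in all libraries for 21 of 38 members; for the others the estimate placed a part of the reads. Exons of 10 members overlap those of another gene in GENCODE M21 (GRCm38), all on the opposite strand, most extensively for Becn1 (Cntd1, at no more than 5.15 counts) and Gabarapl1 (1700101I11Rik, at no more than 20.3 counts).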

Additional observations from a re-analysis of the deposited data

How the results depend on the processing

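Of the 38 members, 21 kept their direction and their side of the threshold under all 12 alternatives, among them Atp6v0d2 (-1.10 to -0.98), Atp6v0a1 (-1.11 to -0.95), Tfeb (-0.90 to -0.75) and Sqstm1 (0.74 to 0.95). With limma on log2(TPM + 1) and log2(TPM + 0.1), calls of higher genes fell to 1852 and 1886 of all genes, and in both to 4 V-ATPase, 2 autophagy and 9 other pathway genes. DESeq2 called 2069 genes lower. No regulator was called higher (0) with DESeq2, with a mean of at least 5 TPM, after quantile normalization or in either TPM fit, and 0 to 1 when a library was left out. The following changed direction: Atp6v1d after quantile normalization (-0.0099), on log2(TPM + 1) (-0.16) and on log2(TPM + 0.1) (-0.16), and, in the same order, Atp6v1f (-0.082, -0.061 and -0.061), Atp6ap1 (-0.16, -0.045 and -0.045), Gabarap (-0.021, -0.032 and -0.033) and Mitf (-0.068, -0.13 and -0.14). Mitf also did so with a mean of at least 5 TPM (-0.011), and Atp6v1f without LUP replicate 2, with -0.013 to 0.11 when a library was left out. Tcirg1, not called, changed sign with a mean of at least 5 TPM (-0.031), after quantile normalization (-0.12), in the TPM fits (-0.12 and -0.12) and between -0.015 and 0.042 when a library was left out, and Vps39 in the TPM fits (0.24 and 0.25). The cause was not tested. The log2 summed level of V0 ran from -0.043 to 0.025 when a library was left out.

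The replicate numbers are not said to pair libraries, and deviations of same-numbered libraries from their group mean correlated at -0.066 over genes. With 2 libraries per group, the crossed value (0.066) is the same with the other sign by construction and adds nothing. With a replicate block, 3533 genes were called higher and 3073 lower, with 6 and 7 V-ATPase, 4 and 9 autophagy and 1 and 1 regulator genes among them; the calls of 2 members, Atp6v1d and Wipi2, were lost, and no other member's call changed. When 1 library was left out, the lone library of its group was assumed to vary like the other group. Standard errors were largest for Wipi1 (0.13) and Map1lc3a (0.10), the members with the fewest counts, beside 0.035 for Sqstm1.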

Other observations

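The ratio of counts to TPM of a gene, scaled to its library, follows the transcript length that the authors' estimate assigned there. This index, computed after the data were seen and set to a mean of 1 per gene, spanned more than 5% over the 4 libraries for 12 of the 38 members (31.6%) and for 55.7% of the 10843 genes with at least 1 TPM in every library. Its widest span among the members was in Atp6v1c1, at 1.03 and 1.17 with vehicle and 0.951 and 0.846 with LUP. For Atp6v1d it was 0.955 and 0.924 with vehicle and 1.05 and 1.07 with LUP, higher in both LUP libraries; it is 1 of the 5 members whose fitted change and TPM had opposite signs. For Becn1 it was 0.942 and 1.12 with vehicle and 0.943 and 0.998 with LUP, so the libraries of the vehicle group stood farther apart than the groups did.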
